A study of Mus musculus with 4 samples.

Results

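The imprinted Dlk1-Meg3 locus of the mouse was described by the 4 genes Meg3, Dlk1, Rian and Mirg in CGR8 embryonic stem (ES) cells kept with or without leukemia inhibitory factor (LIF). Every probe set whose platform annotation gives exactly 1 gene symbol, one of these 4, was taken. This gave 19 probe sets of the 45101 on the array: 11 of Meg3, 4 of Rian, 2 of Mirg and 2 of Dlk1. The genes were chosen with their difference between the groups already known from these 4 arrays. That difference is therefore given as a description, without a test.

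Gene expression was measured on 4 Affymetrix whole-genome arrays of total RNA. Per the labels, 2 arrays held CGR8 cells grown for 2 days with LIF at 1000 U/ml. The other 2 held cells of the same line after 2 days in the same medium without LIF. The culture had gelatin-coated dishes and a serum replacement, and no feeder cells are named. CGR8 is 1 cell line. Nothing in the labels ties the 2 arrays of a group to different cultures, so their spread may be technical. Arrays in each group carry the numbers 1 and 2. The labels do not say whether arrays of the same number belong together, so a difference within a number may not be that of a pair.

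The locus carries paternally expressed protein-coding genes, among them Dlk1, and maternally expressed non-coding RNAs, Meg3 (also called Gtl2), Rian (Meg8) and Mirg (Meg9), which are read from the same strand. Which parental copy is active is set by DNA methylation of an imprinting control region between Dlk1 and Meg3. In mouse pluripotent cells the maternal RNAs are known to be lost when the control region becomes methylated on both copies, and cells that have lost them contribute poorly to embryos. The arrays do not separate parental copies, so a signal here is the sum of both. In such bulk samples fewer cells of a type and less RNA per cell cannot be told apart.

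Promoter sequences of Meg3 and Dlk1 are shown because these genes lie on either side of the imprinting control region and are read from opposite parental copies. They are taken from RefSeq (GRCm38.p6, plus strand, 5′ to 3′) and run from 250 bases before the annotated start to 50 bases after it. The Meg3 window lies at chr12:109540746-109541045 and the Dlk1 window at chr12:109452573-109452872. Capitals mark matches, on either strand, to 3 motifs: TGACGTCA, the cyclic AMP response element, TTCNNNGAA, a general STAT site, and TGCCGC, the hexamer bound by the imprint protein Zfp57.
Meg3: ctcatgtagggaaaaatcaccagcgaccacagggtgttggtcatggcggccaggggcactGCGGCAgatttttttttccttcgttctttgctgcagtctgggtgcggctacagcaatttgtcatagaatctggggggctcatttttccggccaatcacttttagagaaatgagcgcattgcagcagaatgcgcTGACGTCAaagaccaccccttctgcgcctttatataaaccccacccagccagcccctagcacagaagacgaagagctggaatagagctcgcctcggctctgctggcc
Dlk1: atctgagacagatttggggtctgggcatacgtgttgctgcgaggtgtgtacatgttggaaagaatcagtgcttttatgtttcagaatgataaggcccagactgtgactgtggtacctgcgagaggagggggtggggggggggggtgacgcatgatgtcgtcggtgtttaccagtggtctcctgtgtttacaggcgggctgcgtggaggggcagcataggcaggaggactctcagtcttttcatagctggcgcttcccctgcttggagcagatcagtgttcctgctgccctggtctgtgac
The Meg3 window held 1 match to TGACGTCA, starting 57 bases before the start, and 1 match to TGCCGC on the minus strand, at 190 bases before it, in the reverse form GCGGCA. The Dlk1 window held 0 matches to any of the 3. Of 32851 promoter windows in the table, 1.79% held TGACGTCA, 8.30% held TTCNNNGAA and 11.6% held TGCCGC. A second annotated start of Meg3 and the window of Mirg held 0 matches, and the window of Rian held 1, to TTCNNNGAA. A match is a description of the letters and not a binding site.

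The 3 non-coding genes are also hosts of microRNAs. According to RefSeq, Meg3 holds 2 microRNA genes, Rian 3 and Mirg 10, for which 3, 6 and 19 mature microRNAs are listed. Some of these, which lie between the annotated ends of the host gene, are shown with the seed (bases 2 to 8) in capitals. Whether they lie in the RNA that the probe sets measure was not examined. The arrays did not measure the mature microRNAs.
mmu-miR-770-5p (inside Meg3): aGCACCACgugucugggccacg
mmu-miR-370-3p (inside Rian): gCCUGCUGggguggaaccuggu
mmu-miR-453 (inside Mirg): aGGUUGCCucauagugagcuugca
mmu-miR-496a-5p (inside Mirg): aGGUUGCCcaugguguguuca
mmu-miR-369-3p (inside Mirg): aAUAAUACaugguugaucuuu
mmu-miR-410-3p (inside Mirg): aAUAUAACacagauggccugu
Among all microRNAs inside the 3 hosts, miR-453 and miR-496a-5p were the only ones to share a seed, GGUUGCC.

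The median signal of an array was 69.9 and 59.6 with LIF, against 95.5 and 65.5 without it. Transcripts of ES cells were present on each array, since 9 listed markers, Pou5f1, Sox2, Nanog, Zfp42, Dppa5a, Tdgf1, Lin28a, Utf1 and Fgf4, read between 1036 and 32107. Their summed signal was 107662 and 127846 with LIF, against 65907 and 93481 without it. Markers of other cell types were read in the same way. The summed signal of 8 primitive endoderm markers was 1196 and 4640 with LIF, against 1776 and 12848 without it (arrays 1 and 2 in each case). That of 7 neuroectoderm markers was 2265 and 1413 with LIF, against 3228 and 1619 without it, that of 7 trophoblast markers 839 and 1016 against 1305 and 2752, and that of 8 fibroblast markers 5434 and 4706 against 4835 and 5745. No marker signal was at 0, and the lowest in these lists were 26.7, 4.7, 1.7 and 3.0. A sum can rest on few genes. Of the fibroblast list, Fn1 alone read 4802 and 4383 with LIF, against 3936 and 5272 without it. Members of a list also went different ways. Of the tested markers of ES cells, 2 were higher without LIF and 7 lower. The same counts were 6 and 2 for primitive endoderm, 5 and 1 for neuroectoderm, 3 and 1 for trophoblast and 4 and 3 for fibroblast. Of all 26405 tested probe sets, 15497 were higher. The part of these markers in the results below was not tested.

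Meg3, Rian and Mirg, the maternal non-coding RNAs, read about 2.6 to 2.9 times as high without LIF on the brightest probe set of each gene, while Dlk1 was dim and read differently on the arrays of the group without LIF. Whether Dlk1 and the non-coding RNAs differed from each other was not tested. All 19 probe sets had a higher mean log2 signal without LIF, with a median difference of 1.48 and a range of 0.35 to 3.02. For the 17 probe sets of the non-coding RNAs the difference was positive on the arrays numbered 1 (0.84 to 1.66) and also on those numbered 2 (0.28 to 4.92). Over all 26405 tested probe sets, those with 1 gene symbol and a mean log2 signal above 4.51, the median difference was 0.09. Of the members 18 passed this filter, and the dimmer Dlk1 probe set did not. The median over all 19 became 0.88 once array 2 with LIF was dropped.

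Both arrays without LIF lay above both arrays with LIF for 12 of the 19 probe sets, 9 of Meg3, 2 of Rian and 1 of Mirg, and all 12 differed by at least 2-fold. Of all tested probe sets 24.5% lay apart in this direction and 14.1% in the other, and 6.53% and 2.16% did so by at least 2-fold. A share of 38.6% was higher without LIF within both numbers, which held for 18 of the 19 members. The limma test over all tested probe sets (Benjamini-Hochberg adjusted p of 0.05) called 0% of them, 0 of 26405, and thus 0 of the members. At an unadjusted p of 0.05 it counted 7.72% of all tested (4.88% higher and the rest lower), and 10 of the 18 members that passed the filter. When each gene was represented by its brightest probe set, 21 of 14445 genes were called (0.145%). A limma fit with the array number as a replicate block called 15 of the 18 tested members, all of Meg3, Rian or Mirg and all higher, where it called 3.16% of all tested probe sets as higher and 2.19% as lower. Nothing is read from these tests and counts about the members, which were chosen on the same contrast.

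**Figure D1:**
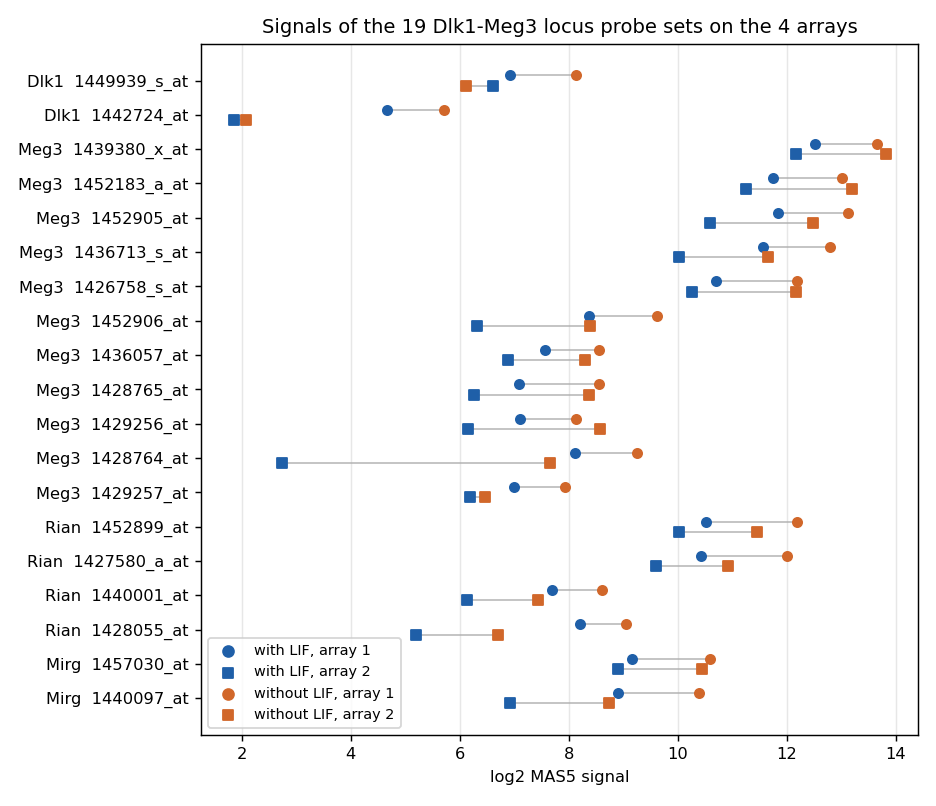
Log2 MAS5 signals of the 19 probe sets (rows, by gene and from bright to dim) on the 4 arrays, with blue for LIF and orange for no LIF, circles for the arrays numbered 1 and squares for those numbered 2, and a grey line joining arrays of the same number. The orange symbol lies right of the blue one of the same number everywhere but for Dlk1 1449939_s_at on the arrays numbered 2.

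**Figure D2:**
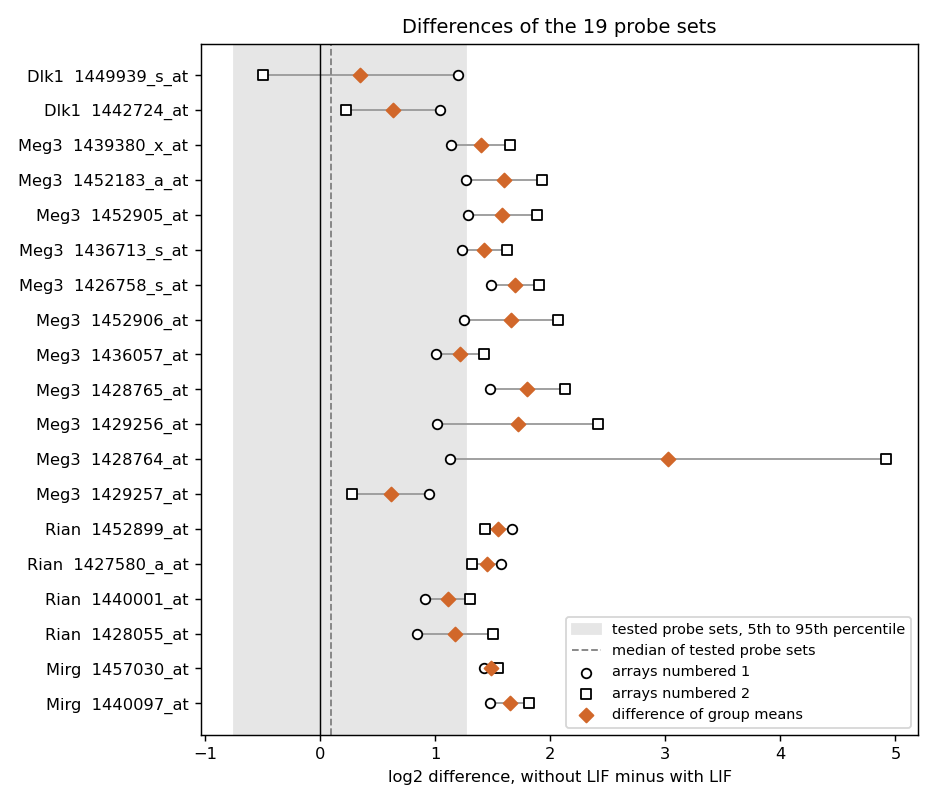
Log2 differences (without LIF minus with LIF) of the 19 probe sets, with the difference of group means as diamonds, the differences within the arrays numbered 1 and 2 as open circles and squares, and the 5th to 95th percentile of all tested probe sets (-0.75 to 1.27) as a grey band. The dashed line is the median of all tested probe sets, 0.09, and 13 of the diamonds lie right of the band.

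Meg3 is a long non-coding RNA with tumour-suppressor activity that associates with Polycomb repressive complex 2. Its brightest probe set, 1439380_x_at, read 5857 and 4582 with LIF, against 12869 and 14411 without it. Both arrays without LIF stood above both with LIF, and the means were 5220 ± 902 and 13640 ± 1090 (SD, n = 2; log2 difference 1.39, SE 0.20). A second bright probe set, 1452183_a_at, read 3417 and 2448 with LIF, against 8241 and 9322 without it, a log2 difference of 1.60 (SE 0.26). Probe set 1426758_s_at read 1661 and 1220.0 with LIF, against 4655 and 4570 without it, a log2 difference of 1.70 (SE 0.22). In these 3 probe sets the arrays of the group without LIF lay close to each other, and the 2 groups were well apart.

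The other bright Meg3 probe sets kept the groups apart but spread more between the arrays. Probe set 1452905_at read 3677 and 1540 with LIF, against 8935 and 5672 without it (log2 difference 1.58, SE 0.71). Probe set 1436713_s_at read 3003 and 1038 with LIF, against 7040 and 3204 without it (1.43, SE 0.95). For the latter array 2 without LIF stood just above array 1 with LIF. In both probe sets the array numbered 2 was the lower in each group.

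The remaining 6 Meg3 probe sets were dimmer, at signals up to 783. Probe set 1452906_at read 329 and 79.6 with LIF, against 783 and 334 without it, with the second array without LIF hardly above the first with LIF. Probe set 1436057_at read 188 and 118 with LIF, against 377 and 316 without it, and 1428765_at read 135 and 76.1 with LIF, against 376 and 332 without it. Probe set 1429256_at read 138 and 70.9 with LIF, against 280 and 379 without it. The log2 differences of these 4 were 1.66, 1.21, 1.80 and 1.72, and their groups did not overlap. In the last 2 probe sets the groups overlapped. Probe set 1428764_at read 276 and 6.7 with LIF, against 606 and 202 without it, so its difference of 3.02 (SE 2.80), the largest of the 19, rested on the value of 6.7 on array 2 with LIF. On the arrays numbered 1 it differed by 1.13, and without array 2 with LIF its difference was 0.34. Probe set 1429257_at read 127 and 73.0 with LIF, against 245 and 88.6 without it (0.61, SE 0.84), and its difference was -0.12 once array 1 without LIF was dropped.

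The Meg3 probe sets covered signals from 6.7 to 14411, and 10 of the 11 differences were at least 1 on the log2 scale. Over all tested probe sets the 95th percentile of the difference was 1.27. Without array 2 with LIF the 11 differences ranged from 0.21 (1429257_at) to 1.47 (1426758_s_at), with 1.22 for the brightest probe set. Probe sets with an _s_at or _x_at ending can bind transcripts other than the intended one, and those with _a_at cover several transcripts of a gene. The brightest Meg3 probe set with a plain _at ending, 1452905_at, had a difference of 1.58 against 1.39 for the brightest of all, 1439380_x_at. The mean over all 11 was 1.61.

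Rian, the host of several box C/D small nucleolar RNAs, had 4 probe sets. The brightest, 1452899_at, read 1469 and 1034.5 with LIF, against 4653 and 2800 without it. The groups did not overlap, and the means were 1252 ± 307 and 3727 ± 1311 (SD, n = 2; log2 difference 1.55, SE 0.45). Probe set 1427580_a_at read 1375 and 772 with LIF, against 4096 and 1925 without it (1.45, SE 0.69), also without overlap. The dimmer probe sets overlapped between the groups. They were 1440001_at, which read 207 and 69.8 with LIF, against 389 and 172 without it (1.11, SE 0.98), and 1428055_at, which read 296 and 36.8 with LIF, against 529 and 104 without it (1.17, SE 1.90). On all 4 the array numbered 2 was the lower of each group. The difference of 1428055_at was -0.33 once array 2 with LIF was dropped. Within each number the 4 probe sets were higher without LIF, by 0.84 to 1.66 on the arrays numbered 1 and by at least 1.30 on those numbered 2.

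Mirg, a host transcript of a dense microRNA cluster that includes miR-410, had 2 probe sets. Probe set 1457030_at read 571 and 480 with LIF, against 1531 and 1397 without it. Its arrays agreed closely within each group, with means of 526 ± 64.6 and 1464 ± 94.5 (SD, n = 2; log2 difference 1.48, SE 0.14, the smallest SE of the 19). Probe set 1440097_at read 479 and 121 with LIF, against 1334 and 425 without it (1.65, SE 1.29). Here array 2 without LIF lay below array 1 with LIF, so the groups overlapped. The differences within the numbers were 1.48 and 1.81, but the labels do not say that the numbers pair the arrays.

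Dlk1 encodes a transmembrane protein with EGF-like repeats, related to the Notch ligands, that is known for holding back adipocyte differentiation. Its brighter probe set, 1449939_s_at, read 122 and 97.7 with LIF, against 279 and 69.3 without it. Of the arrays without LIF 1 stood above and 1 below both arrays with LIF, and the means were 110 ± 17.0 and 174 ± 148 (SD, n = 2; log2 difference 0.35, SE 1.02). The difference was 1.20 on the arrays numbered 1 and -0.50 on those numbered 2, and became -0.65 once array 1 without LIF was dropped. The other probe set, 1442724_at, read 25.4 and 3.6 with LIF, against 52.4 and 4.2 without it, and with a mean log2 signal below the filter it was not tested. It was low on both arrays numbered 2, and its difference of 0.63 became -0.78 without array 2 with LIF and -1.19 without array 1 without LIF. A difference in Dlk1 was therefore not detectable with 2 arrays a group at these signals.

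Probe sets of the locus were dimmer on the arrays numbered 2. This held for 19 of 19 with LIF, by a median of -0.83 on the log2 scale, and for 16 of 19 without LIF, by a median of -1.09. Over all tested probe sets the same medians were -0.02 and -0.13. The genes differed in this. Without LIF the median was -0.25 for the 11 probe sets of Meg3, -0.89 for Mirg, -1.13 for Rian and -2.82 for Dlk1. With LIF it was -0.83 for Meg3, -1.12 for Mirg, -1.20 for Rian and -1.57 for Dlk1. The exceptions without LIF were 3 Meg3 probe sets, 1439380_x_at, 1452183_a_at and 1429256_at. The summed neuroectoderm markers given above were lower on the arrays numbered 2 too. Those of ES cells, primitive endoderm and trophoblast were higher there, and those of fibroblasts lower with LIF and higher without it. What part the array number has in the spread of the members within a group was not tested.

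**Figure D3:**
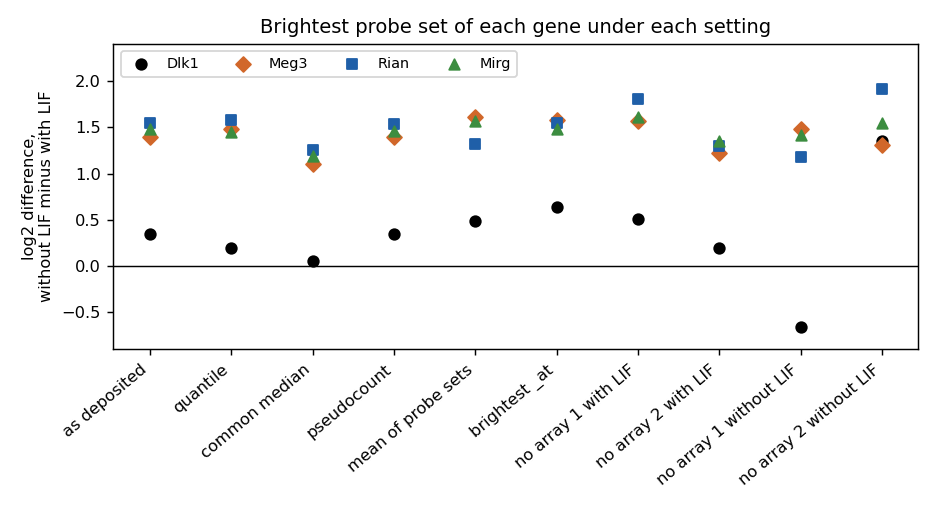
Log2 difference (without LIF minus with LIF) of the brightest probe set of each gene under the setting named on the horizontal axis, or, in the settings so named, of the mean of its probe sets or its brightest one with a plain _at ending. Meg3, Rian and Mirg stay between 1.10 and 1.92 throughout, whereas Dlk1 ranges from -0.65 to 1.35.

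In the RefSeq gene table the genes around the locus on chromosome 12 are, in order, Evl, Degs2, Yy1, Slc25a29, Slc25a47, Wars, Wdr25 and Begain before Dlk1, and Dio3os, Dio3, Ppp2r5c, Dync1h1 and Hsp90aa1 after Mirg. Rtl1, a paternally expressed gene derived from a retrotransposon, lies between Meg3 and Rian. Rtl1, Begain and Dio3 were not represented by a probe set of their own. Of the other 11 flanking genes 10 were tested, and 0 passed limma in either direction. At an unadjusted p of 0.05 limma counted 2, Evl and Dio3os, both higher, where it counted 4.88% of all tested probe sets as higher. The median log2 difference of the 10 was 0.44, against 0.09 over all tested probe sets. Of the 10, 8 were above 0, as were 15497 of all 26405 tested.

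Dio3os, a non-coding RNA antisense to the thyroid hormone deiodinase gene Dio3 at the far end of the imprinted domain, had the largest difference of the flanking genes. It read 10.7 and 5.4 with LIF, against 79.6 and 108 without it (log2 difference 3.61), and the groups did not overlap. Both values with LIF lay below the filter signal of 22.9, and with a pseudocount of 14.3 the difference was 2.27. Dio3os passed the filter only through the arrays without LIF, where it is high, so its place among the counted genes supports nothing. Evl, a regulator of actin filaments, read 724 and 558 with LIF, against 1142 and 887 without it (0.66, SE 0.25, limma adjusted p = 0.61). Degs2 was not tested and read 20.5 and 2.0 with LIF, against 24.7 and 31.9 without it.

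Among the other flanking genes no difference passed limma. Wdr25 had a log2 difference of 0.42 (SE 0.34), the tryptophanyl-tRNA synthetase gene Wars 0.21 (SE 0.19), and the mitochondrial carriers Slc25a47 and Slc25a29 0.69 (SE 0.38) and 0.73 (SE 0.44). All 4 had both arrays without LIF above both with LIF, as had Dync1h1 below. This held for 7 of the 10 tested flanking genes, Dio3os among them, and for 24.5% of all tested probe sets. Yy1, a zinc finger factor, read -0.02 (SE 0.16). On the other side the phosphatase subunit Ppp2r5c read 0.17 (SE 0.19), the dynein heavy chain Dync1h1 0.47 (SE 0.21) and the chaperone Hsp90aa1 -0.23 (SE 0.17). The limma adjusted p of these 8 genes lay between 0.68 and 0.99. With a common median Wars and Ppp2r5c turned to -0.08 and -0.12, and with quantile normalization Yy1 turned to 0.06. For Slc25a29, Wars, Yy1, Ppp2r5c and Hsp90aa1, 2 further probe sets each read the opposite way to the brightest.

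**Figure D4:**
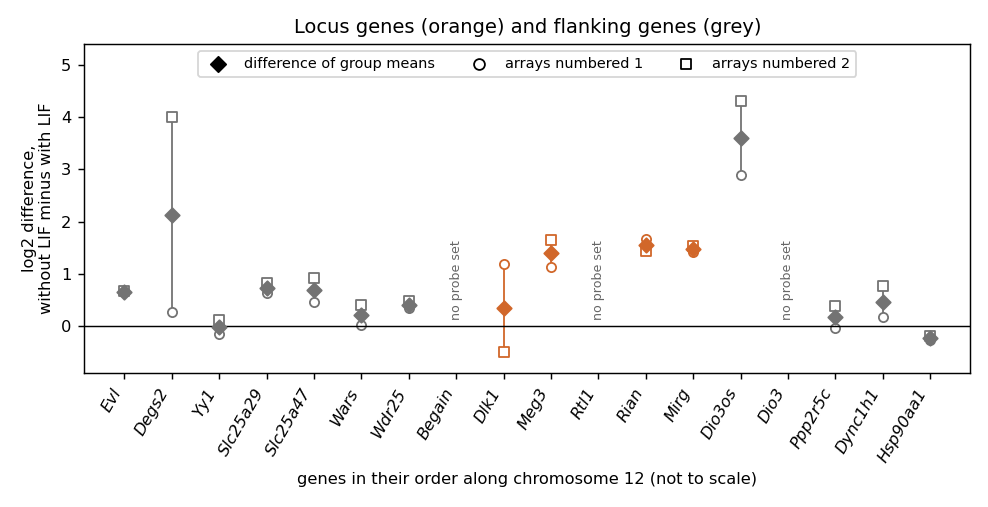
Log2 differences (without LIF minus with LIF) of the brightest probe set of each gene, in their order along chromosome 12 and not to scale, with locus genes in orange and flanking genes in grey. Diamonds are differences of group means and open circles and squares those within the arrays numbered 1 and 2; Meg3, Rian and Mirg lie at 1.39 to 1.55, and Dio3os at 3.61, from signals with LIF below the filter.

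Imprint control at this locus depends on factors that set, keep or remove DNA methylation and on chromatin regulators. Of 19 such genes 18 were tested and 0 passed limma in either direction, while 3 higher and 2 lower had an unadjusted p of 0.05 or less, against 7.72% of all tested probe sets in either direction (4.88% higher). Their median log2 difference was -0.10, with 7 above 0 and 11 below. Eed, 1 of the 2 lower genes, read 9941 and 10492 with LIF, against 5468 and 6110 without it. Its difference was -0.82 (SE 0.15, limma adjusted p = 0.25), and 1 of its 2 probe sets read the opposite way. Eed was chosen after its values were seen. Tet3 had a mean below the filter and was not tested, and read 4.5 and 2.5 with LIF, against 15.5 and 11.3 without it.

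The de novo DNA methyltransferases Dnmt3b and Dnmt3a had higher signals without LIF, and Tet1, a dioxygenase that oxidises methylated cytosine, lower ones, though none passed limma. Dnmt3b read 7975 and 6360 with LIF, against 16192 and 16611 without it (log2 difference 1.20, SE 0.17, limma adjusted p = 0.17). Dnmt3a read 2450 and 1577 with LIF, against 3431 and 5083 without it (1.09, SE 0.30, limma adjusted p = 0.44). Dnmt3l, their cofactor without catalytic activity, read 3692 and 3331 with LIF, against 3878 and 6392 without it (0.51, SE 0.26). The groups of these 3 genes did not overlap. Of the 18 tested genes, 5 lay apart as higher and 5 as lower, against 24.5% and 14.1% of all tested probe sets. Tet1 read 6692 and 8582 with LIF, against 2836 and 4920 without it (-1.02, SE 0.30, limma adjusted p = 0.48), also without overlap, whereas the related Tet2 overlapped (-0.78, SE 0.49). The maintenance methyltransferase Dnmt1 had a log2 difference of 0.01 (SE 0.20), which was -0.28 with a common median, and 2 of its 3 probe sets read the opposite way.

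Aff3, a subunit of elongation complexes that is known to bind the control region of this locus and an enhancer of Meg3 in mouse ES cells, read 476 and 241 with LIF, against 1504 and 984 without it (log2 difference 1.85, SE 0.40, limma adjusted p = 0.31). It had the highest difference of the 18 tested genes, with both arrays without LIF above both with LIF. Zfp57, which protects imprinted methylation, read 606 and 613 with LIF, against 349 and 496 without it (-0.55, SE 0.26, limma adjusted p = 0.70), without overlap. Its partner Trim28 read 17981 and 20523 with LIF, against 12402 and 18031 without it (-0.36, SE 0.22), with overlapping groups. Dppa3, which guards maternal methylation in the zygote, read -0.10 (SE 0.22).

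**Figure D5:**
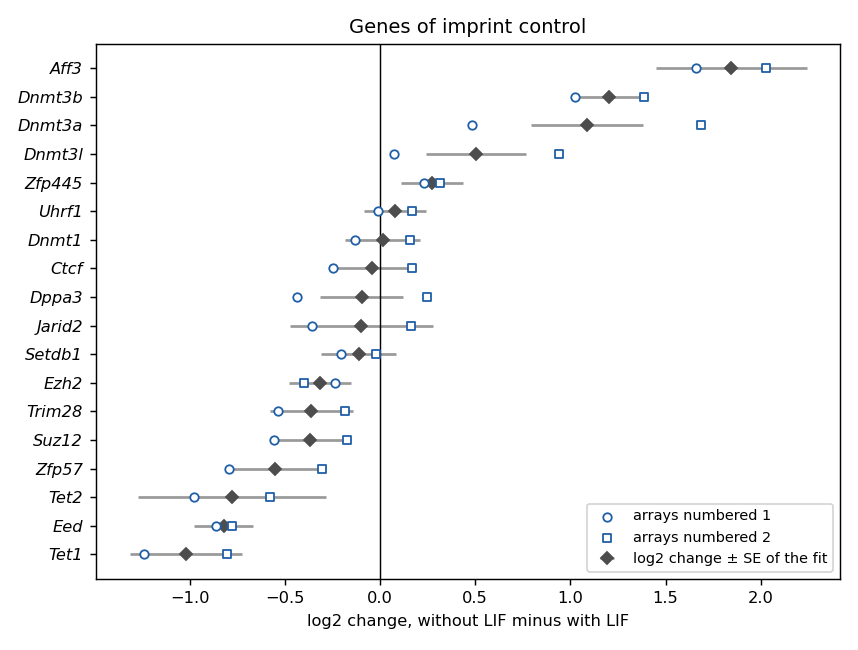
Log2 differences (without LIF minus with LIF) of the 18 tested genes of imprint control, as diamonds with the SE of the limma fit, beside the differences within the arrays numbered 1 (open circles) and 2 (open squares). Aff3, Dnmt3b and Dnmt3a lie highest and Tet2, Eed and Tet1 lowest.

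Genes with the most similar pattern were sought over the 4 arrays, among the brightest probe sets of 13512 other genes, by the root mean square difference of log2 signals after centring each gene on its own mean. Nearest to Meg3 were Fjx1, Glyat and Minar2 (0.02, 0.03 and 0.05), nearest to Rian were Lhpp, Nrxn2 and Adgrl2 (0.03, 0.07 and 0.07), and nearest to Mirg were Mylk, Dcn (also in the fibroblast list) and Castor2 (0.03, 0.04 and 0.06). Nearest to Dlk1 were Scgb1b27, Csf1 and Siglech (0.08, 0.08 and 0.09). With 4 arrays and this many genes close matches are plentiful, and the 3 for each gene are given as a description.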

How the data were processed

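The authors deposited intensity values that the submitters' processing notes name as MAS5, and their range shows them to be linear, not log, signals. MAS5 scales each array to a common level, and the mean without the lowest and highest values was alike on all 4 arrays. The MAS5 version is not given in the sources used here. Probe sets were named through the platform annotation: 34945 of 45101 had 1 gene symbol. Of these, 34741 matched the RefSeq table of GRCm38.p6, which changed 0 symbols. Wars1 was matched as Wars. The 1 value at or below 0 was raised to 0.1 before taking log2. Differences are without LIF minus with LIF. For members SE is that of a difference of means from the spread in each group, and for other genes the moderated SE of the fit. Probe sets with a mean log2 signal above the 30th percentile (4.51, a signal of 22.9) entered a limma fit (version 3.58.1, R 4.3.3; trended eBayes, group only, 2 residual degrees of freedom, two-sided). The fit was tested on simulated data. Alternatives were quantile normalization, scaling each array to a common median, adding a pseudocount of 14.3, other filters, eBayes without the trend, 1 probe set per gene, the array number as a replicate block and leaving out each array. A gene was read from its probe set with the highest mean. Genes were named by fixed lists and by likeness to the members. The members and lists were chosen with earlier results of these data known.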

Additional observations from a re-analysis of the deposited data

How the results depend on the processing

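The limits are those of 4 arrays, 2 a group. The count of 0 called probe sets was 1 with quantile normalization, 21 with a common median, 2 without a filter, 21 with 1 probe set per gene and 0 to 8 with 1 array left out (5 without array 1 with LIF, 8 without array 1 without LIF). The numbers 1 and 2 may not pair the arrays, although differences between the numbers correlated at r = 0.41 between the groups over 26405 probe sets. With the replicate block 1412 probe sets were called (5.35%; 835 higher and 577 lower). Of the genes in the lists of flanking, imprint control, Notch and other imprinted genes, 17 were called with the block, and 0 with each of the other settings: Evl, Dio3os, Dnmt3a, Dnmt3b, Aff3, Notch3, Dll1, Cdkn1c, Mest, Grb10, Gnas, Nnat and Sgce higher, and Tet1, Tet2, Eed and Notch4 lower. Dio3os passed the filter only through the arrays without LIF, so its call supports nothing. In the cell marker lists the block called Lin28a, Dab2, Cubn, Sox1, Nes, Krt8 and Krt18 higher and Sox2, Nanog, Zfp42, Tdgf1 and Tubb3 lower.

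With a common median the log2 difference was 1.10 for Meg3 and 1.19 for Mirg, and that setting moved the median of all tested probe sets from 0.09 to -0.20. The mean of all Meg3 probe sets was 1.61. With 1 array left out the ranges were 1.22 to 1.57 for Meg3, -0.65 to 1.35 for Dlk1, 1.18 to 1.92 for Rian, 1.36 to 1.61 for Mirg and 0.88 to 1.92 for the median over all 19 probe sets. The cause was not tested. Of the other 15 member probe sets, 4 of 120 values changed sign. With 1 array left out the ranges were -1.19 to 2.45 for Dlk1 1442724_at, -0.12 to 1.35 for Meg3 1429257_at and -0.33 to 2.67 for Rian 1428055_at. Among 22 named genes of the lists, 13 of 262 values changed sign. With a common median Wars read -0.078, Ppp2r5c -0.12 and Dnmt1 -0.28, and Yy1 read 0.055 with quantile normalization. With 1 array left out the ranges were -0.13 to 0.092 for Yy1, -0.18 to 0.21 for Dnmt1, -0.29 to 0.10 for Dppa3, -0.20 to 1.90 for Dlk2 and -0.41 to 0.23 for Notch1.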

Other observations

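Of 19 imprinted genes outside the locus 15 had a probe set and all 15 were tested. Of these, 0 passed limma, and 5 higher and 0 lower had an unadjusted p of 0.05 or less, against 4.88% of all tested probe sets that were higher. Above 0 were 12 of the 15, against 15497 of all 26405 tested, with a median log2 difference of 0.73 (0.73 on the arrays numbered 1 and also on those numbered 2) against 0.09 over all tested probe sets. H19 was not represented by a probe set of its own.

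Of 13 genes of the Notch pathway, to which Dlk1 is related, 12 were tested, 0 passed limma, and 2 higher and 1 lower had an unadjusted p of 0.05 or less, against 7.72% of all tested probe sets in either direction. Their median log2 difference was 0.21. Dlk2, the closest relative of Dlk1, read 17.4 and 74.7 with LIF, against 68.0 and 62.3 without it (0.85, SE 0.81, limma adjusted p = 0.86). Notch1 read -0.09 (SE 0.30, limma adjusted p = 0.97). The Notch ligand Dll1, chosen after its values were seen, read 234 and 164 with LIF, against 822 and 2024 without it (2.72, SE 0.46, limma adjusted p = 0.23). Notch3 and Notch4 were the others counted at the unadjusted p. Notch3 had a difference of 1.32 (SE 0.28, limma adjusted p = 0.31). Notch4 went the other way, at 198 and 144 with LIF, against 50.7 and 16.7 without it (-2.54, SE 0.66, limma adjusted p = 0.41). For Notch4, 2 of its 3 probe sets read the opposite way.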
